A study of Mus musculus with 3 samples.

Results

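The proteasome genes of the mouse were read in 3 thymic leukaemias. They were taken as every gene whose symbol begins with Psm, a letter from a to g and a digit, which gave 50 of the 24437 genes in the expression tables. The leukaemias arose in Mb1-CreDPB mice on the C57BL/6 strain, in which Cre recombinase made from the mb-1 (Cd79a) locus deletes the transcription factor gene Spi1 in B lineage cells of animals that also lack the related gene Spib. They form 1 group and are called leukaemia 1 (Thy_853), leukaemia 2 (Thy_854) and leukaemia 3 (Thy_857). No control samples were analysed here, and the labels do not say in words that each thymus came from its own mouse. An SD with n = 3 therefore measures the spread of these libraries, which may be partly technical. A p-value with n = 3 likewise covers these libraries only. RNA came from homogenised thymus after lysis of red cells, so other cells of the thymus were also present. Levels are given as FPKM, which corrects the number of sequenced fragments for a transcript's length and a library's depth. Where 3 values stand together they follow the order leukaemia 1, 2, 3.

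The proteasome is the barrel-shaped protease that degrades ubiquitin-tagged proteins. Its 20S core is built from rings of alpha subunits (Psma genes) that gate the entrance and rings of beta subunits (Psmb genes), of which beta1, beta2 and beta5 carry the active sites. In most tissues these sites are filled by Psmb6 (beta1), Psmb7 (beta2) and Psmb5 (beta5). Lymphoid cells, and other cells exposed to interferon, replace them with Psmb9, Psmb10 and Psmb8 and so form the immunoproteasome, known for supplying peptides to MHC class I. In cortical epithelial cells of the thymus Psmb11 takes the beta5 site instead. The 19S cap holds ATPases (Psmc genes) that unfold the substrate and further subunits (Psmd genes) that bind and deubiquitinate it, while Psme genes encode other activators that dock on the core.

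All but Psmb11 and Psma8 had a mean FPKM of at least 1, which left 48 expressed members. Together the 50 members held 1.14%, 1.35% and 1.38% of all FPKM in leukaemias 1, 2 and 3. The median expressed member stood at percentile 90.7, 92.8 and 92.8 among the 9992, 9797 and 9706 genes with FPKM of at least 1. The highest was Psme1, an activator subunit, at percentiles 98.3, 98.3 and 98.3, and the lowest Psma3 at 45.6 and 50.9 in leukaemias 1 and 2 and Psme4 at 45.0 in leukaemia 3. In 34, 34 and 35 members the deposited FPKM lay above the upper bound of its own deposited 95% interval, and over the expressed members FPKM was 0.987 to 1.36 times the midpoint of that interval. Levels of the members above their bound are therefore uncertain by at least their own ratio to the midpoint, which is wider than their intervals. In the other members FPKM did not exceed the upper bound.

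**Figure D1:**
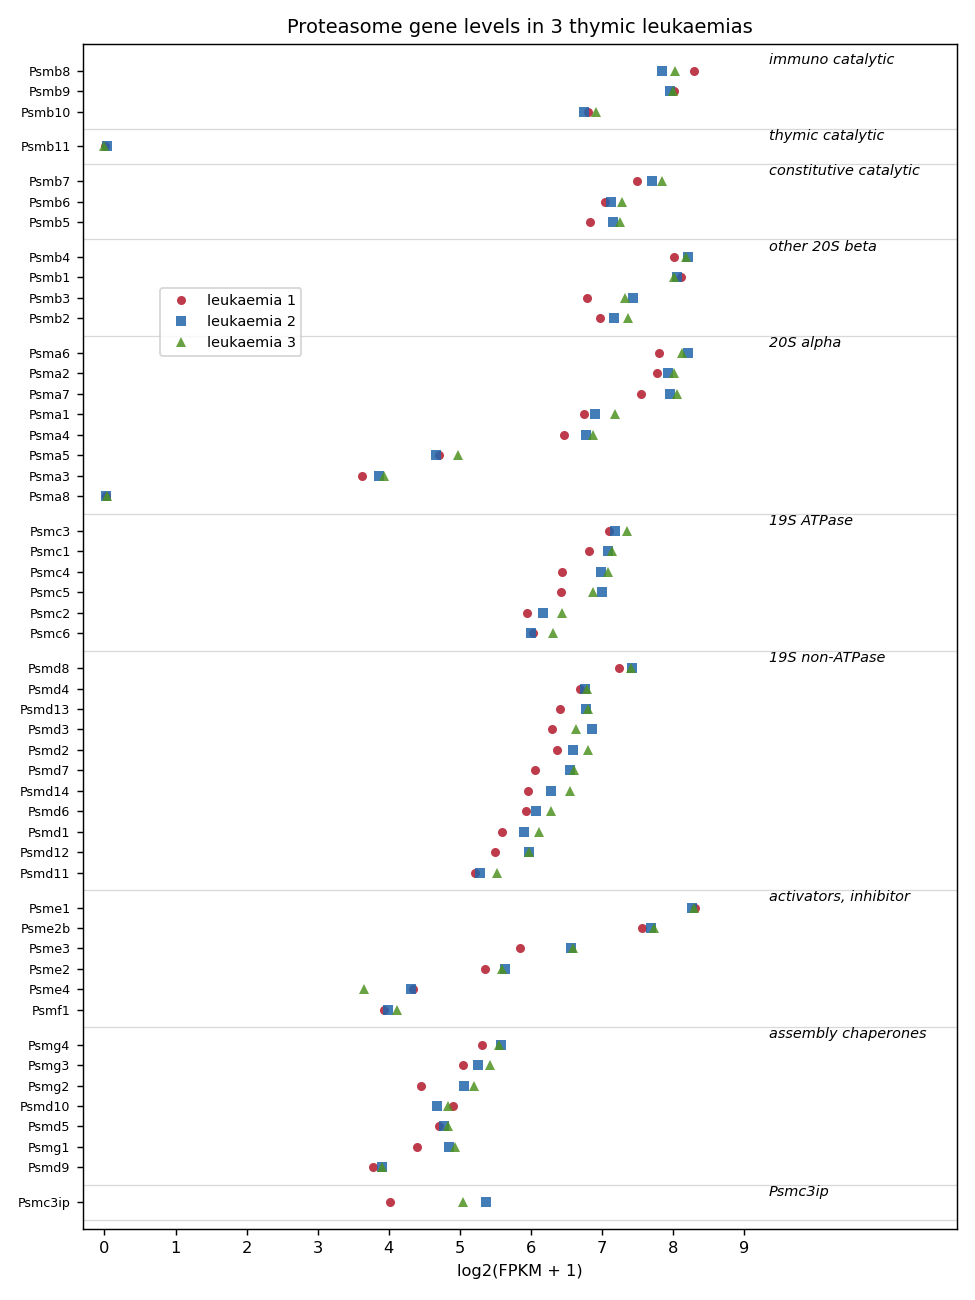
Level of each of the 50 proteasome genes as log2(FPKM + 1) in leukaemia 1 (red circles), leukaemia 2 (blue squares) and leukaemia 3 (green triangles), 1 row per gene, grouped by class. Most genes lie between 4 and 8.3, Psmb11 and Psma8 lie at 0, Psma3 and Psma5 lie below the other alpha genes, and the red circles are the leftmost in 39 of the 48 expressed genes.

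The libraries carried transcripts of B lineage markers at the highest sums, and those of other cell types at lower sums. These sums do not measure amounts of cells. The 8 B lineage markers summed to 3867, 3072 and 2624 FPKM. The 12 T cell markers had a median of 13.1, 3.18 and 3.55 FPKM and summed to 238, 197 and 113, or to 161, 32.7 and 37.7 without Lck, which alone had 77.1, 165 and 75.6. Of these markers Cd247 was listed at 0 in leukaemias 2 and 3 and Ptcra in leukaemia 2. The 8 NK cell markers had a median of 5.55, 1.20 and 2.03 FPKM and summed to 136, 151 and 89.5, or to 119, 26.5 and 26.9 without Gzma, which alone had 17.1, 125 and 62.6. The 11 myeloid markers summed to 431, 343 and 129 FPKM. The 10 markers of thymic epithelium, whose cortical cells make Psmb11, summed to 9.76, 6.78 and 9.62 FPKM. Among these 10, Foxn1 and Aire were listed at 0 in leukaemias 1 and 3. Markers of dendritic cells summed to 4.81, 1.52 and 2.52 FPKM, and those of red cell precursors to 143, 211 and 26.5. The 8 markers of stroma and endothelium summed to 48.0, 51.8 and 25.4 FPKM, of which Pecam1 alone had 41.9, 46.7 and 22.5. Spi1 had 11.6, 6.70 and 7.13 FPKM and Spib 11.8, 14.6 and 9.60; with no control library and no exon values these do not check the deletions. In bulk RNA, fewer cells of a type and less RNA per cell cannot be told apart.

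At the beta5 and beta1 sites the immunoproteasome genes Psmb8 and Psmb9 stood above their constitutive counterparts in every leukaemia, while Psmb10 at the beta2 site stood below. Psmb8, the immunoproteasome beta5 subunit, had 313, 229 and 260.2 FPKM (267 ± 42.4, SD, n = 3), against 113, 141 and 151 FPKM for Psmb5, the constitutive beta5 subunit (135 ± 20.01). The 2 genes did not overlap in level. Psmb9, the immunoproteasome beta1 subunit, had 258, 248 and 254 FPKM (253 ± 5.38), against 130.3, 139 and 154 FPKM for its counterpart Psmb6 (141 ± 12.02), again without overlap. The beta2 site ran the other way. Psmb10, its immunoproteasome subunit, had 110.4, 106 and 119 FPKM (112 ± 6.61), against 179, 208 and 229 FPKM for Psmb7, the constitutive subunit (206 ± 25.02), so that here the constitutive gene was the higher in each leukaemia.

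On the log2(FPKM + 1) scale Psmb8 exceeded Psmb5 by 1.47, 0.70 and 0.78, a mean of 0.98 ± 0.42, and Psmb9 exceeded Psmb6 by 0.98, 0.83 and 0.72, a mean of 0.84 ± 0.13. Psmb10 minus Psmb7 was -0.70, -0.97 and -0.94, a mean of -0.87 ± 0.15. Each difference kept its sign in 3 of 3 leukaemias. The exact two-sided sign-flip permutation test gave p = 0.25 for each of the 3 positions, and 0.25 after Benjamini-Hochberg adjustment over them (n = 3), which is the smallest p that 3 libraries allow. A p under 0.05 was therefore out of reach in this design.

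Psmb8, Psmb9 and Psmb10 together made up 61.8%, 54.4% and 54.2% of the FPKM of the 6 catalytic genes (56.8% ± 4.29, n = 3). Leukaemia 1 stood apart, while leukaemias 2 and 3 differed by less than 1 percentage point. The numerator and the denominator both moved. The immunoproteasome genes summed to 682, 583 and 633 FPKM and the constitutive genes to 422, 488 and 534. By site, the share of the immunoproteasome gene was 73.6%, 61.9% and 63.3% at beta5, 66.5%, 64.1% and 62.2% at beta1 and 38.1%, 33.8% and 34.2% at beta2. With interval midpoints in place of FPKM the summed share was 60.4%, 52.7% and 52.7%, so leukaemia 1 remained the highest.

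**Figure D2:**
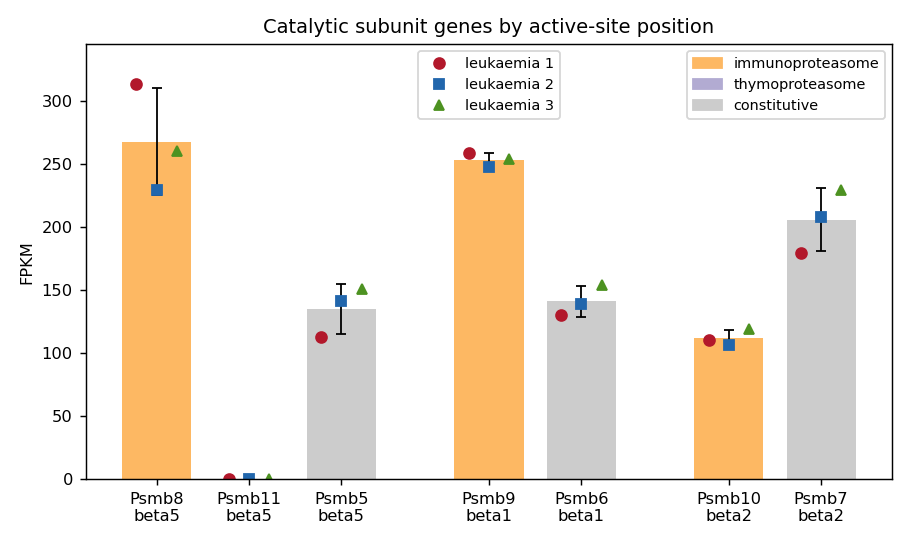
FPKM of the catalytic subunit genes, grouped by active site, with immunoproteasome genes in orange, the thymic gene in violet and constitutive genes in grey. Bars are means, error bars SD over 3 leukaemias and symbols single leukaemias; Psmb8 and Psmb9 stand above Psmb5 and Psmb6, Psmb10 stands below Psmb7, and Psmb11 is at the baseline.

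Psmb11, the thymic beta5 subunit, was at the floor. It was listed at 0.00795, 0.0206 and 0 FPKM, and its interval reached up to 0.0353 FPKM in leukaemia 2. Psmb11 minus Psmb5 was -6.82, -7.12 and -7.25 on the log2(FPKM + 1) scale (-7.06 ± 0.22, n = 3), with p = 0.25 in the same exact permutation test; the size of this difference is set by the pseudocount, and was -12.9 with 0.01 in place of 1. Psmb5 and Psmb11 are neighbours on chromosome 14, with 7.31 kb between them in mm10.

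Psmb9 and Psmb8 lie in the MHC region of chromosome 17, interleaved with Tap1 and Tap2, the genes of the transporter that carries proteasome products into the endoplasmic reticulum. In mm10 Psmb9 occupies 34182099 to 34187330, Tap1 34187556 to 34197225 and Psmb8 34198195 to 34201454. Psmb9 and Tap1 are read in opposite directions from starts 225 bases apart, and the whole of that shared stretch is printed here because these 2 neighbours, which share it, had different spreads over the leukaemias. It is given on the Tap1 strand from RefSeq (GRCm38.p6, chr17:34187331-34187555, plus strand), with the CCAAT box in capitals; the Psmb9 start lies to its left and the Tap1 start to its right.
Psmb9 and Tap1: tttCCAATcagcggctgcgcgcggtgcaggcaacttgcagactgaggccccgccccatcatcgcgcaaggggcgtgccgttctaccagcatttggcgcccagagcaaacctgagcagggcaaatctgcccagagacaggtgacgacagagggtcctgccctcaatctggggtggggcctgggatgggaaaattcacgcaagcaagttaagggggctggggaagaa

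Tap1 had 192, 125 and 128 FPKM in leukaemias 1, 2 and 3, differing by 0.61 for leukaemia 1 minus 2 and 0.58 for leukaemia 1 minus 3 on the log2(FPKM + 1) scale. The corresponding differences of Psmb9 were 0.06 and 0.03. Psmb9 thus had 1 of the smallest spreads among the members, with an SD of 2.12% of its mean, against 15.8% for Psmb8. Of the words of 50 bases in Psmb9 transcripts, 9.71% also occur in Tap1 transcripts, and the sources used here do not say whether fragments were counted by strand, so some fragments of these overlapping ends could be assigned to either gene.

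Short stretches before the starts of Psmb8, Psmb5 and Psmb6 are shown because these genes carry the contrast between immunoproteasome and constitutive sites and hold letters of factors known to act on them. Factors of the STAT family, activated by cytokines, bind a core spelled TTCNNNGAA, and Nfe2l1, which raises proteasome genes when proteasome activity is short, binds the antioxidant response element core TGACNNNGC. Capitals mark a match to TTCNNNGAA in Psmb8 and to TGACNNNGC in Psmb5 and Psmb6. The RefSeq sequences (GRCm38.p6) are chr17:34198075-34198194 on the plus strand for Psmb8, chr14:54617996-54618055 on the minus strand for Psmb5 and chr11:70525297-70525356 on the plus strand for Psmb6, each ending at the base before the start.
Psmb8: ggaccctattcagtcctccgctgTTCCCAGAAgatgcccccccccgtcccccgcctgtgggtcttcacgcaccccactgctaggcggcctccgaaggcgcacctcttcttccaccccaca
Psmb5: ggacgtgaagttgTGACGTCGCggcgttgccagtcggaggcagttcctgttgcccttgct
Psmb6: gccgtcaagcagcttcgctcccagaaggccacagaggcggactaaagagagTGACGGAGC

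No window around the start was found for Psma8, Psmb1, Psmb2, Psmb7, Psmc3, Psmd3, Psmd7 and Psmg2, so these genes were not searched. Windows from 250 bases before to 50 after the start were found for the other 42 of the 50 members, and letters were searched on both strands. TTCNNNGAA was in the windows of 3 of them (Psmb8, Psmd2 and Psmg1), 7.14%, and in 8.30% of all 32851 windows. TGACNNNGC was in 6 (Psmb5, Psmb6, Psmc6, Psmd12, Psmd9 and Psme4), 14.3%, against 12.4% of all windows. The core of the interferon-stimulated response element, a pair of GAAA runs with 2 bases between them, was in 5 (Psmb3, Psmd4, Psmd9, Psme1 and Psmg4), 11.9%, against 3.44%, and CCAAT was in 15, 35.7%, against 37.4%. Neither that core nor TTCNNNGAA was in the windows of Psmb9 and Psmb10. These matches describe letters in a window of this length and are not binding sites.

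The other beta genes, which have no active site, averaged between 144 and 281 FPKM, against 112 to 267 for the catalytic genes other than Psmb11. Psmb4, the highest of them, had 257, 296 and 290.4 FPKM (281 ± 21.4), and Psmb2, the lowest, 124, 142 and 164 (144 ± 19.98). Psmb1 had 276, 265 and 258 FPKM (266 ± 9.08) and was 1 of 2 members, with Psmb8, whose interval in leukaemia 1 lay above those in both other leukaemias. When FPKM was rescaled by either of the 2 methods tried, Psmb8 was the 1 member in that position and Psmb1 was not. Psmb3 had 109.7, 173 and 159.7 FPKM (147 ± 33.2), lowest in leukaemia 1.

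The alpha genes spanned a wide range, although the ring holds 1 copy of each in the same number. Psma6, the highest, had 222, 295 and 277 FPKM (265 ± 38.0), followed by Psma2 with 218, 244 and 257 (239 ± 19.7) and Psma7 with 187, 247 and 265 (233 ± 40.9). Psma1 and Psma4 averaged 123 ± 19.2 and 104 ± 14.9 FPKM. Psma5 had 25.1, 24.3 and 30.3 FPKM (26.6 ± 3.29), and Psma3, the lowest expressed alpha gene, had 11.3, 13.5 and 14.3 (13.0 ± 1.56). The highest of the 7 expressed alpha genes exceeded the lowest 19.7, 21.9 and 19.4 times in leukaemias 1, 2 and 3. Psma8, which encodes the alpha subunit of testis, was listed at 0.0107, 0.0112 and 0.0204 FPKM.

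The transcripts of several of these genes share sequence with other genes. Of the words of 50 bases in Psma5 transcripts, 55.4% also occur in other genes of GENCODE M21, led by the processed pseudogenes Gm8394 and Gm12989, and for Psma3 the share was 21.99%, led by Gm13835. Psma1, Psma6 and Psma7 shared none. Psmb3 shared 55.8% and Psmb5 54.1%, in Psmb5 mostly with the processed pseudogene Gm3375, and these genes averaged 147 ± 33.2 and 135 ± 20.01 FPKM. Psmb7 shared 28.1%, with Nek6. The part of shared sequence in the levels of Psma3, Psma5, Psmb3, Psmb5 and Psmb7 was not tested.

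**Figure D3:**
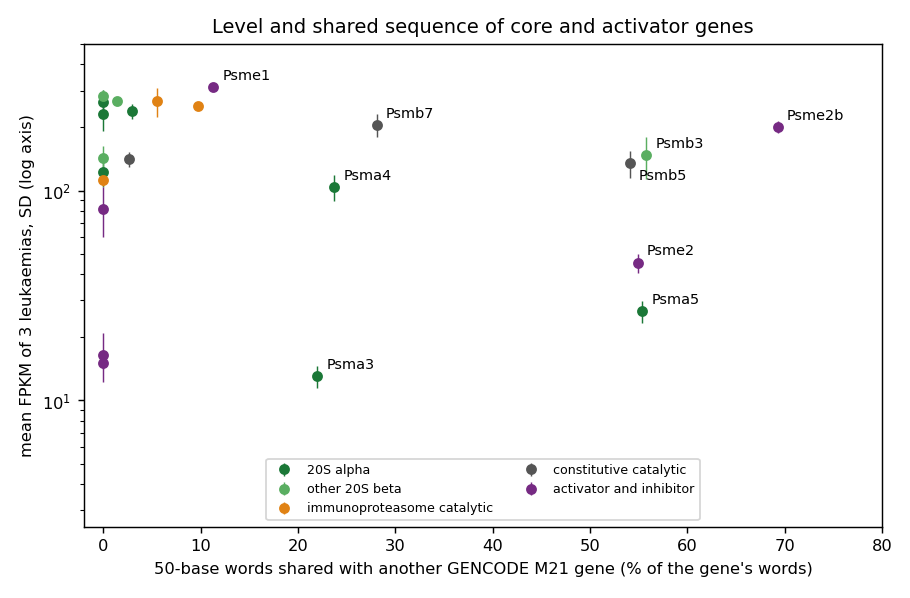
Mean FPKM over 3 leukaemias (log axis, SD as vertical lines) against the share of each gene's words of 50 bases that another GENCODE M21 gene also holds, for expressed core and activator genes. Psme2b (69.3%), Psmb3, Psma5, Psme2 and Psmb5 lie furthest to the right, and at that end levels reach from 26.6 FPKM for Psma5 to 202 for Psme2b.

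The 19S genes were less spread than the alpha genes. Among the 6 ATPases Psmc3 was the highest, at 136, 144 and 163 FPKM (148 ± 13.5), and Psmc6 the lowest, at 64.0, 63.3 and 78.7 (68.7 ± 8.69). Their highest level was 2.25, 2.28 and 2.07 times the lowest. Among the 11 other cap subunits Psmd8 stood highest, at 150.5, 171 and 169.6 FPKM (164 ± 11.4), and Psmd11 lowest, at 36.04, 37.8 and 44.8 (39.5 ± 4.63). Psmd4, a ubiquitin receptor of the cap, had 103, 107 and 109.8 FPKM (107 ± 3.62), and Psmd14, its deubiquitinase, 61.4, 76.6 and 92.6 (76.9 ± 15.6). Within a class the SD of log2(FPKM + 1) over members, averaged over the leukaemias, was 0.46 for the ATPases, 0.56 for the other cap genes, 0.54 for the beta genes without active site and 1.67 for the expressed alpha genes.

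The activator genes held the member with the smallest relative spread and a pair of genes nearly identical in coding sequence. Psme1, a subunit of the interferon-inducible PA28 ring, had 314, 307 and 313 FPKM (312 ± 4.06), the highest mean and, with an SD of 1.30% of that mean, the smallest relative spread of the 48 expressed members. Its partner Psme2 had 40.05, 48.9 and 47.2 FPKM (45.4 ± 4.69), while Psme2b, an intronless copy of Psme2 on another chromosome, was listed at 188, 206 and 211 (202 ± 12.4). Psme2b thus stood 4.68, 4.22 and 4.48 times above Psme2. The coding sequences of both run to 717 bases and agree at 712 of them, 99.3%, with 5 differing bases and no gap, in 11 exons for Psme2 and 1 for Psme2b. The 100 coding bases with the most differences, coding bases 444 to 543, are printed from GENCODE M21 with the 3 differing bases in capitals, because fragments within the coding sequence that cover none of the differing bases do not tell the genes apart. Over whole transcripts, 54.9% of the words of 50 bases in Psme2 and 69.3% of those in Psme2b also occur in another gene. Psme2 lies on the minus strand of chromosome 14 (these coding bases fall within 55588049 to 55588286, spliced) and Psme2b on the minus strand of chromosome 11 (48945576 to 48945675).
Psme2: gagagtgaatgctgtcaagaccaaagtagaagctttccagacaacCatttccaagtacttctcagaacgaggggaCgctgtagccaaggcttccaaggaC
Psme2b: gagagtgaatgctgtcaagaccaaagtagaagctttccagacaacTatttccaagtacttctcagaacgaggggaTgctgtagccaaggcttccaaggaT

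The split between Psme2 and Psme2b is therefore uncertain. Their sum was 228, 255 and 258 FPKM (247 ± 16.8), so that Psme1 exceeded the sum 1.38, 1.20 and 1.21 times. Psme1 and Psme2 lie 5.91 kb apart on chromosome 14. Psme3, which encodes the nuclear PA28 gamma ring and is not known as interferon-inducible, had 56.6, 93.2 and 95.7 FPKM (81.8 ± 21.9). Psme3, Psme2 and Psme2b were each lowest in leukaemia 1 with intervals apart from both others, and Psme1 was not. Psme4, the PA200 activator linked to histone degradation, had 19.3, 18.8 and 11.5 FPKM (16.5 ± 4.34), lowest in leukaemia 3. The inhibitor gene Psmf1 had 14.3, 14.9 and 16.3 FPKM (15.1 ± 1.004).

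The assembly chaperones had lower levels than most of the subunits they assemble. Their class median was 25.1, 27.7 and 29.5 FPKM. Psmg4, the highest, had 38.7, 46.8 and 46.0 FPKM (43.8 ± 4.49), and Psmd9, the lowest and a chaperone of the cap's ATPase ring, 12.7, 14.0 and 13.9 (13.5 ± 0.73). Psmg2, which pairs with Psmg1 to build the alpha ring, had 20.8, 32.3 and 35.8 FPKM (29.6 ± 7.82), and Psmg1 20.02, 27.7 and 29.5 (25.7 ± 5.03). Psmd10, the ankyrin-repeat chaperone also known as gankyrin, was the exception in direction, with 29.0, 24.7 and 27.6 FPKM (27.1 ± 2.22).

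The leukaemias were next compared with each other, 1 library against 1, so that no p-value is given. A call needed a difference of at least 1 in log2(FPKM + 1), no overlap of the deposited intervals and, in 1 of the pair or both, an FPKM of 1 or more. For leukaemia 1 minus 2, 1 of 48 expressed members was called, lower in leukaemia 1, where 8.16% of the 10295 genes tested were called in either direction and 2.6% as lower. For leukaemia 1 minus 3 it was again 1 of 48, lower in leukaemia 1, against 9.98% of 10265 genes in either direction and 3.22% as lower. Between leukaemias 2 and 3 no member was called, against 4.68% of 10047 genes in either direction, 1.72% as lower and 2.96% as higher in leukaemia 2. Large differences were thus no more common among the members than among all genes.

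The single call was Psmc3ip, which the name rule admits although its product, Hop2, is a meiotic recombination factor and not a proteasome subunit. It had 15.2, 40.3 and 31.9 FPKM, and differed by -1.36 for leukaemia 1 minus 2 and by -1.02 for leukaemia 1 minus 3. When FPKM was rescaled by the median ratio, the second of these calls was lost. Its locus overlaps that of Mlx by 67 bases on chromosome 11, and 27.1% of its words of 50 bases also occur in Mlx transcripts. Mlx had 21.3, 26.5 and 21.9 FPKM and was not called in any pair.

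Most small differences ran in the same direction. Leukaemia 1 had the lowest level of 39 of the 48 expressed members, whereas 39.7% of the 10412 genes expressed in any leukaemia were lowest there. The median member differed by -0.21 for leukaemia 1 minus 2 and by -0.32 for leukaemia 1 minus 3, and by -0.08 for leukaemia 2 minus 3. The median of all genes tested was 0.02, -0.01 and -0.06 in these pairs. A difference below 0 was found in 39 of 48 members for leukaemia 1 minus 2, against 48.2% of genes, in 42 for leukaemia 1 minus 3, against 50.4%, and in 36 for leukaemia 2 minus 3, against 59.1%. By a criterion added after the values were seen, intervals that did not overlap with no threshold on the fold, 31 of 48 members were lower in leukaemia 1 than in both others, where 24.5% of the 10412 genes were. The reverse held for 2 members, Psmb1 and Psmb8, and for 27.2% of genes. These shares are over genes of all levels, while the median member stood at percentiles 90.7, 92.8 and 92.8. Genes of like level were not counted separately. Pair by pair, 31 members were lower and 4 higher in leukaemia 1 than in 2, against 32.1% and 36.4% of genes, and 40 were lower and 3 higher in leukaemia 1 than in 3, against 36% and 35.8%. Between leukaemias 2 and 3, 20 were lower and 5 higher in leukaemia 2, against 35% and 21.3%. The intervals are meant to hold the error of counting and assigning fragments but not that between animals. In most members the FPKM lay above its own interval, so the counts of intervals apart rest on the intervals and not on the FPKM.

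By class, the counts lowest in leukaemia 1 were as follows, to be read against 39.7% of all expressed genes and without a test between classes. All 11 cap subunits without ATPase activity were lowest in leukaemia 1, with a median difference of -0.31 for leukaemia 1 minus 2 and -0.40 for leukaemia 1 minus 3. The same was true of 5 of 6 ATPases (-0.25 and -0.39), 6 of 7 expressed alpha genes (-0.24 and -0.32), all 3 constitutive catalytic genes (-0.21 and -0.35), 3 of 4 other beta genes (-0.20 and -0.29), 6 of 7 chaperones (-0.21 and -0.25) and 4 of 6 activator and inhibitor genes (-0.09 and -0.17). None of the 3 immunoproteasome genes was lowest in leukaemia 1, and their median differences were 0.06 and 0.03. The 1.5-fold mark with intervals apart was passed by 4 members for leukaemia 1 minus 2 (Psmb3 at -0.65, Psmc3ip, Psme3 at -0.71 and Psmg2 at -0.61), all lower in leukaemia 1, against 8.33% of all genes as lower and 12.7% as higher. For leukaemia 1 minus 3 it was passed by Psmc3ip, Psmc4 (-0.64), Psme3 (-0.75) and Psmg2 (-0.75) as lower and by Psme4 (0.69) as higher in leukaemia 1, against 12% and 14.3% of all genes. Psme4 was also the 1 member past it for leukaemia 2 minus 3, at 0.66, where 4.83% of all genes were lower and 6.33% higher in leukaemia 2. These counts of members are near or below the shares over all genes.

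**Figure D4:**
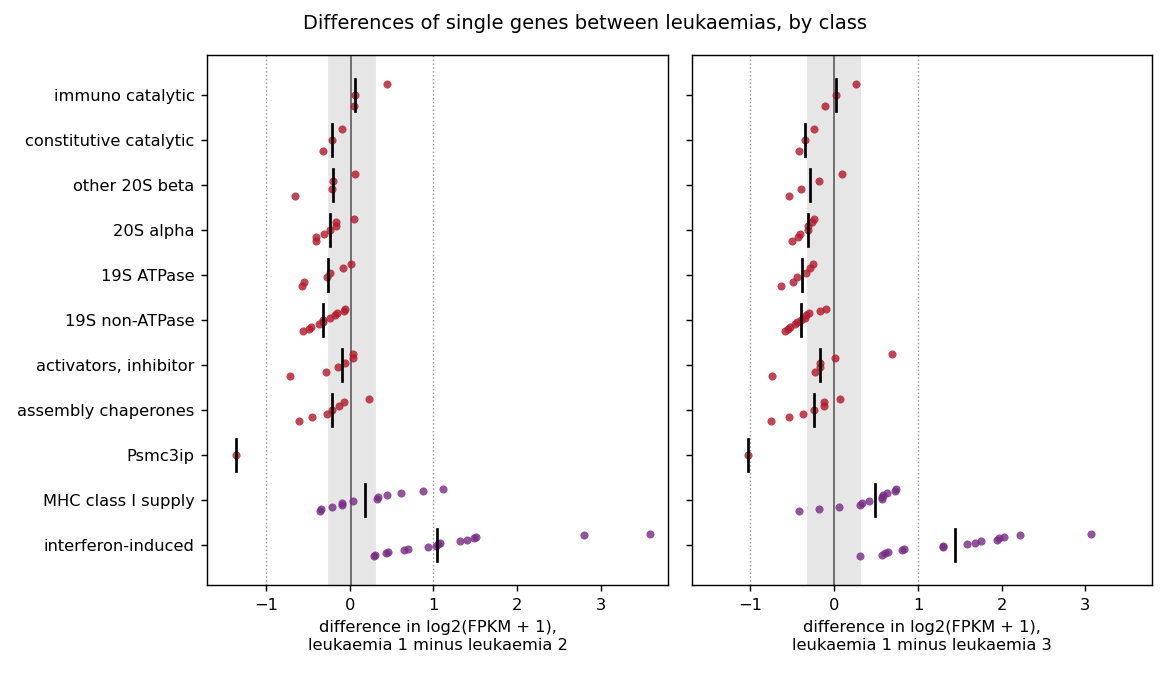
Difference in log2(FPKM + 1) of single genes for leukaemia 1 minus 2 (left) and leukaemia 1 minus 3 (right), by class, with members in red and comparison lists in violet. Short black lines are class medians, the grey band spans the quartiles of all genes tested with their median as a line, and dotted lines mark differences of 1; most proteasome classes lie left of the median of all genes, while interferon-induced genes lie right of it.

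Genes around the proteasome were read the same way. Of 13 partners outside the name rule, 12 were called in no pair. The assembly factor Pomp, needed for both kinds of core, had 192, 219 and 243 FPKM (218 ± 25.6), lowest in leukaemia 1. Among core genes this also held for 6 of 7 expressed alpha, all 3 constitutive catalytic and 3 of 4 other beta genes. It held for none of the 3 immunoproteasome catalytic genes. Sem1, a small cap subunit, was the highest at 508, 459 and 478 FPKM (482 ± 24.6), Ubqln1, a ubiquitin shuttle, had 62.1, 66.2 and 64.6 (64.3 ± 2.08), and Zfand5, the lowest, 7.04, 6.40 and 7.56 (6.999 ± 0.58). The shuttle gene Ubqln2 was the exception, with 11.7, 3.70 and 10.4 FPKM, called as higher in leukaemia 1 than in 2 and lower in leukaemia 2 than in 3.

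None of 12 regulators was called in any pair. Nfe2l1, the factor that raises proteasome genes when activity is short, had 12.4, 13.2 and 12.4 FPKM (12.7 ± 0.49), and Ngly1, the glycanase that activates it, was the lowest of the list at 12.8, 10.4 and 8.74 (10.6 ± 2.04). Irf8 had 146, 207 and 155 FPKM (169 ± 33.0). Irf1, which drives immunoproteasome genes after interferon, had 73.4, 59.6 and 59.1 FPKM (64.01 ± 8.098). Nlrc5, the transactivator of MHC class I and of Psmb9, had 30.8, 29.9 and 23.0 FPKM (27.9 ± 4.31). Irf1 and Nlrc5 were both highest in leukaemia 1, Nlrc5 by only 0.04 in log2(FPKM + 1) over leukaemia 2, while Irf8 was lowest there. Of the 12 regulators, 7 had a difference above 0 for leukaemia 1 minus 2 and 8 for leukaemia 1 minus 3. Among all genes tested 51.8% and 49.6% did.

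Differences of all 16 interferon-induced genes lay above 0 for leukaemia 1 minus 2 and for leukaemia 1 minus 3, where 51.8% and 49.6% of all genes did. Of the 12 genes listed for peptide supply to MHC class I, 7 and 10 did. In that list of 12, 1 was called for leukaemia 1 minus 2 and none in the other pairs. Its median difference was 0.18 for leukaemia 1 minus 2 and 0.49 for leukaemia 1 minus 3. The called gene was H2-K1, with 1936, 895 and 1161 FPKM. B2m had 3388, 2489 and 2254 FPKM (2710.4 ± 598), H2-D1 1478, 808 and 895 (1060.4 ± 364) and Tapbpl, the lowest, 26.8, 28.6 and 21.4 (25.6 ± 3.75). Of 16 interferon-induced genes, 9 were called as higher in leukaemia 1 than in 2 and 10 as higher in leukaemia 1 than in 3, with none lower, against 5.56% and 6.75% of all genes called as higher. Their median differences were 1.04 and 1.45. Called in both pairs were Irf7, Isg15, Ifit1, Ifit3, Oas1a, Mx1, Rsad2, Gbp2 and Gbp3. Isg15 had 116, 55.5 and 46.6 FPKM, and Rsad2, the lowest of the list, 5.16, 1.91 and 0.511. Bst2 was the highest, at 259.7, 166 and 175 FPKM (200.1 ± 51.8), and Oas1a, with 81.8, 5.87 and 8.88, differed most, by 3.59 and 3.07. Irf7, the interferon response factor, differed by 1.51 and 2.22 and Gbp2 by 2.80 and 1.68. Psmb8, Psmb9 and Psmb10, which interferon is known to raise, differed by 0.45, 0.06 and 0.06 for leukaemia 1 minus 2 and by 0.27, 0.03 and -0.11 for leukaemia 1 minus 3.

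Most T cell markers were also called as higher in leukaemia 1, beside the immunoproteasome share. Differences of 7 of 8 NK cell markers lay above 0 in each pair with leukaemia 1, but fewer were called. Among the NK cell markers, Ncr1 had 0.190, 0.132 and 0.0843 FPKM and Klrb1c 0.632, 0.185 and 0.403, and neither was called in any pair. Of 12 T cell markers 10 were called as higher in leukaemia 1 than in 2 and 10 as higher than in 3, and of 8 NK cell markers 5 and 4 were; 1 T cell marker (Lck) was called as lower in leukaemia 1 than in 2, and 1 NK cell marker (Gzma) as lower in each pair. The myeloid list had no call for leukaemia 1 minus 2 and 5 higher for leukaemia 1 minus 3. Of 8 B lineage markers, 2 were called as higher in leukaemia 1 than in 2, and none was called for leukaemia 1 minus 3. Differences of 5 and 8 of them lay above 0 in these pairs. Among all genes tested, 5.56% and 6.75% were called as higher in leukaemia 1 in these pairs, and 2.6% and 3.22% as lower. T, NK and myeloid cells also make immunoproteasomes, and their part in the immunoproteasome share was not tested.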

How the data were processed

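RNA sequencing of 3 thymic leukaemias was analysed. The submitters' processing notes name build mm10, TopHat2 2.0.9, Cuffdiff 2.1.1, Cufflinks and Trim Galore 0.2.8.1, but neither their order and settings nor the use of strand. The values the authors deposited are FPKM with the 2 limits of a 95% interval for each gene, per the file headers, so no count test was used and depth is unknown. Rows with a date for a symbol (26 of 25020 per table) were left out and loci of 1 symbol summed; each member had 1 locus and status OK. An exact 0 can be a failed estimate and is given as listed at 0. Coordinates are the tables', with 1 added to each start. Differences were taken on log2(FPKM + 1), which understates those of low genes. Members and lists were chosen with earlier results of these data known. Named were all catalytic, activator and inhibitor genes, the highest and lowest member of each class, members called in a pair or listed at 0, and, in each other list, the 3 highest, the lowest and those called in 2 pairs; Psmb1, Psmb3, Psmc4, Psmd4, Psmd14, Psmg1, Psmg2 and Psmd10 and the remaining alpha genes were added for their roles or values. Of 16 partners listed 13 were in the tables, where Sem1 and AI314180 stand for Shfm1 and Ecm29; Paaf1 was not analysed here. A gene that the naming rule would include is not reported here. Protein sequences were not used here, so the planned protein identities were not computed. Motifs and words of 50 bases were searched in RefSeq (GRCm38.p6) and GENCODE M21. Python 3.11.15, numpy 2.4.6, pandas 2.3.3 and Biopython 1.88 were used.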

Additional observations from a re-analysis of the deposited data

How the results depend on the processing

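The alternatives were other pseudocounts, interval midpoints, single loci, rows of status OK, 2 rescalings, other thresholds and each library left out in turn. No result changed sign. The differences between immunoproteasome and constitutive genes kept their direction, and the shares and the spreads within classes moved by less than 1 SD, under the alternatives run for each. With interval midpoints the mean differences were smaller in size. They were 0.73 for Psmb8 minus Psmb5, 0.74 for Psmb9 minus Psmb6 and -0.78 for Psmb10 minus Psmb7. Psmb11 minus Psmb5 kept its sign but its size is set by the pseudocount, at -10.3 and -12.9 with 0.1 and 0.01. The counts of members called depended on the threshold. At 1.5-fold, 4 were lower in leukaemia 1 than in 2, 4 were lower and 1 higher in leukaemia 1 than in 3, and 1 was higher in leukaemia 2 than in 3. At a log2 difference of 2 the counts lower in leukaemia 1 were 0 and 0, and with FPKM rescaled by the median ratio the count lower in leukaemia 1 than in 3 was 0. The median difference of the constitutive catalytic genes for leukaemia 2 minus 3, -0.14, was -0.0915 and -0.109 after rescaling by the median ratio and to 1 sum. The members higher in leukaemia 1 than in both others numbered 1 under either rescaling, where 2 had been, and Psmb1 was the one lost; the cause was not tested. The count lowest in leukaemia 1 was 39 and 42 under the 2 rescalings. The count of members below 0 for leukaemia 2 minus 3, 36, was 29 after rescaling by the median ratio and 35 after rescaling to 1 sum. No paired analysis was possible because the samples form 1 group. With 3 libraries, no fragment counts and FPKM above its own interval for most members, levels of different genes are uncertain by at least the ratio of FPKM to interval midpoint, which reached 1.36, and by more where sequence is shared.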
